A study of Tuber melanosporum with 9 samples.

Results

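The genes described here are the homologs, in the black truffle Tuber melanosporum, of 4 proteins that assist DNA methylation in the mould Neurospora crassa. They are the DIM-5 homolog (GSTUMT00003241001), the HP1 homolog (GSTUMT00000912001), the PP1 homolog (GSTUMT00009673001) and the DMM-1 homolog (GSTUMT00000976001). They were taken by identifier and are 4 of the 7496 genes in the gene tables. RNA was sequenced in 4 libraries and DNA methylation, by bisulfite sequencing, in 5, with 1 library per condition. FB is a mature fruitbody collected in the field, whose strain is not stated, and FLM is free-living mycelium of the strain Mel28 on malt agar. ECM, with bisulfite data only, is hazel root tips colonised by the fungus, so that this DNA also holds plant DNA. The 5-aza-treated mycelium is a liquid culture of Mel28 in the dark at 23 °C that received 100 µM 5-azacytidine, a nucleoside that inhibits DNA methyltransferases once built into DNA, every 5 days for 45 days, and the untreated mycelium is the matching culture given water. Stage, strain and growth conditions vary together between FB and the mycelia, and their parts cannot be told apart. FLM and the liquid cultures share strain and stage, and differ in medium, culture time, DNA extraction and experiment. Bisulfite reads were also longer in FB, FLM and ECM than in the liquid cultures. The parts of these differences in the comparisons below were not tested. The stage labels were not checked against marker genes here.

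In Neurospora crassa, DIM-5 is the histone methyltransferase that places the lysine mark of heterochromatin on histone H3. HP1 binds this mark and brings the DNA methyltransferase DIM-2 to it, and PP1 is the phosphatase that removes a phosphate next to it and so lets DIM-5 act. DMM-1 works at the other end of the pathway, where it keeps heterochromatin and DNA methylation from spreading into neighbouring genes. These roles are known from Neurospora and were not tested in truffle. In the truffle genome, cytosine methylation lies mainly on transposable elements (TEs), above all at CG sites, while CHG and CHH sites (H stands for A, C or T) carry less.

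The RNA libraries held 23397373 reads on genes in FB, 23816308 in FLM, 21802480 in 5-aza-treated and 22446163 in untreated mycelium. Levels are given as CPM, in which the reads of a gene are scaled so that all genes of a library have the same total, with an exact Poisson interval of 95%. Intervals here cover counting error only. With no replicate, no test between conditions was possible, and a ratio was called where it passed a fold of 2 in either direction. The RNA integrity number was 7.0 for FB and 6.5 for FLM, and its part in the differences was not tested. In RNA from whole tissue, fewer cells of a type and less RNA per cell cannot be told apart.

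The DIM-5 homolog, the candidate writer of the histone mark, stood highest in the fruitbody. It had 276 CPM in FB (95% interval 269 to 283, rank 607 of 7496 genes), 87.0 CPM in FLM (83.2 to 90.8, rank 1956), 53.4 CPM in 5-aza-treated mycelium (50.4 to 56.6, rank 4206) and 62.2 CPM in untreated mycelium (59.0 to 65.5, rank 3759). None of these intervals overlap, and in both liquid cultures the gene ranked near the middle of all genes. The HP1 homolog, the candidate reader of the mark, stood lowest in the fruitbody. It had 56.3 CPM in FB (53.3 to 59.4, rank 3356), 158 CPM in FLM (153 to 163, rank 1160), 248 CPM in 5-aza-treated mycelium (242 to 255, rank 861) and 310 CPM in untreated mycelium (303 to 317, rank 633). The fruitbody was thus the library with the least RNA of the reader and the most of the writer.

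The PP1 homolog, the candidate phosphatase, was the most even of the 4. It had 329 CPM in FB (322 to 336, rank 480), 396 CPM in FLM (388 to 404, rank 460), 371 CPM in 5-aza-treated mycelium (363 to 380, rank 449) and 298 CPM in untreated mycelium (291 to 305, rank 670). Its highest library, FLM, stood 1.33-fold above its lowest, untreated mycelium. The DMM-1 homolog, the candidate modifier that limits spreading, had 25.9 CPM in FB (23.9 to 28.1, rank 4766), 56.8 CPM in FLM (53.8 to 59.9, rank 2725), 125 CPM in 5-aza-treated mycelium (120 to 130, rank 2034) and 117 CPM in untreated mycelium (113 to 122, rank 2170). Its order was that of the HP1 homolog for FB and FLM, while the intervals of the 2 liquid cultures overlapped.

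**Figure D1:**
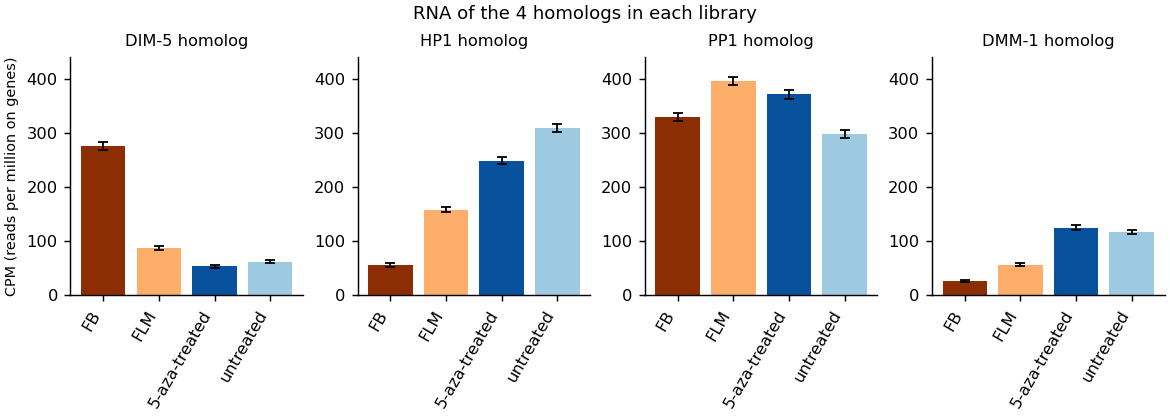
RNA of the DIM-5, HP1, PP1 and DMM-1 homologs in FB, FLM, 5-aza-treated and untreated mycelium, in CPM, 1 library per bar with the exact Poisson 95% interval. The DIM-5 homolog is highest in FB at 276 CPM, the HP1 and DMM-1 homologs are lowest there at 56.3 and 25.9 CPM, and the PP1 homolog lies between 298 and 396 CPM in all 4.

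Between the genes of 1 library, levels were compared per length. In FB the deposited RPKM was 59.3 for the PP1 homolog, 32.7 for the DIM-5 homolog, 8.24 for the HP1 homolog and 2.08 for the DMM-1 homolog, a range of 28.5-fold. In FLM it was 84.5 for the PP1 homolog, 27.4 for the HP1 homolog, 12.2 for the DIM-5 homolog and 5.40 for the DMM-1 homolog, a range of 15.7-fold. The DIM-5 and HP1 homologs thus exchanged places between FB and FLM, and the PP1 and DMM-1 homologs kept the ends. In the 5-aza experiment the lengths deposited with the genes are not gene lengths (946 of 7496 are below 50 bp), so CPM was divided by the exon length of the FB and FLM table. In untreated mycelium this gave 170 CPM per kb for the PP1 homolog, 144 for the HP1 homolog, 29.8 for the DMM-1 homolog and 23.3 for the DIM-5 homolog. The 5-aza-treated mycelium had the same order, with 212, 115, 31.7 and 20.1 CPM per kb. The DIM-5 homolog, second in FB, was therefore the lowest of the 4 in both liquid cultures.

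The 5-aza-treated and untreated mycelia come from 1 experiment and differ by the treatment. The log2 ratio of 5-aza-treated over untreated mycelium was -0.22 for the DIM-5 homolog (95% interval -0.33 to -0.11) and -0.32 for the HP1 homolog (-0.37 to -0.27). It was 0.32 for the PP1 homolog (0.27 to 0.36) and 0.09 for the DMM-1 homolog (0.01 to 0.17). None of the 4 passed a fold of 2, against 7.76% of the 7192 genes with at least 10 reads in either library (4.94% higher and 2.82% lower in treated mycelium), and the median over all genes was 0.04. The 2 members with lower RNA in treated mycelium, the writer and the reader, lay at the percentiles 24.4 and 17.3 of all genes, and the PP1 homolog at 77.0, so that each was within the ordinary spread of genes in this experiment.

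FB and FLM differed far more. The log2 ratio of FB over FLM was 1.67 for the DIM-5 homolog (1.59 to 1.74), -1.49 for the HP1 homolog (-1.58 to -1.40), -0.27 for the PP1 homolog (-0.31 to -0.22) and -1.13 for the DMM-1 homolog (-1.27 to -0.99). The DIM-5 homolog was thus 3.17-fold higher in FB, the HP1 homolog 2.81-fold and the DMM-1 homolog 2.19-fold lower in FB. These 3 of 4 passed a fold of 2, but so did 57.7% of the 7228 genes, 35.0% higher and 22.7% lower in FB, and a change of this size was no rarity among genes. The DIM-5 homolog lay at percentile 79.0 of all log2 ratios, the HP1 homolog at 17.7, the DMM-1 homolog at 21.1 and the PP1 homolog at 34.0. The median gene stood at 0.43, and with median-of-ratios scaling, which sets that median near 0, the ratios were 1.24, -1.92, -0.69 and -1.56 for the DIM-5, HP1, PP1 and DMM-1 homologs, while 25.5% of genes were called higher and 28.7% lower. With RPKM read totals exchanged between the 2 libraries, as the methods list them, the ratio of the DMM-1 homolog was -0.94 and no longer passed.

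FLM and untreated mycelium are both Mel28, but come from separate experiments on different media and from separate tables. The log2 ratio of FLM over untreated mycelium was 0.48 for the DIM-5 homolog (0.38 to 0.58), -0.97 for the HP1 homolog (-1.03 to -0.91), 0.41 for the PP1 homolog (0.36 to 0.45) and -1.04 for the DMM-1 homolog (-1.14 to -0.95). Only the DMM-1 homolog passed a fold of 2, against 54.3% of 7191 genes (10.7% higher and 43.6% lower), and the median gene stood at -0.82. Against that median the picture turned, since with median-of-ratios scaling the ratios were 1.30 for the DIM-5 homolog and 1.23 for the PP1 homolog, both then called, and -0.15 for the HP1 and -0.23 for the DMM-1 homolog, with 21.3% of genes higher and 19.5% lower. The HP1 and DMM-1 homologs lay at percentiles 45.0 and 42.4 of all genes, which is where an average gene lay, and the DIM-5 and PP1 homologs at 83.9 and 82.7.

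FB over untreated mycelium shares its libraries with the comparisons above, and its values are given beside them without being counted again. The log2 ratio was 2.15 for the DIM-5 homolog (2.06 to 2.23), -2.46 for the HP1 homolog (-2.55 to -2.38), 0.14 for the PP1 homolog (0.09 to 0.19) and -2.18 for the DMM-1 homolog (-2.31 to -2.05). The same 3 homologs as in FB over FLM passed a fold of 2, against 51.5% of 7255 genes (17.3% higher and 34.2% lower), with percentiles of 92.4, 13.0, 66.0 and 15.2 in the order of the ratios. With median-of-ratios scaling the ratios were 2.56, -2.05, 0.55 and -1.76, and 24.2% of genes were higher and 25.8% lower. The sign of the PP1 homolog depended on the total, since it was -0.14 when reads on classified TEs were added.

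**Figure D2:**
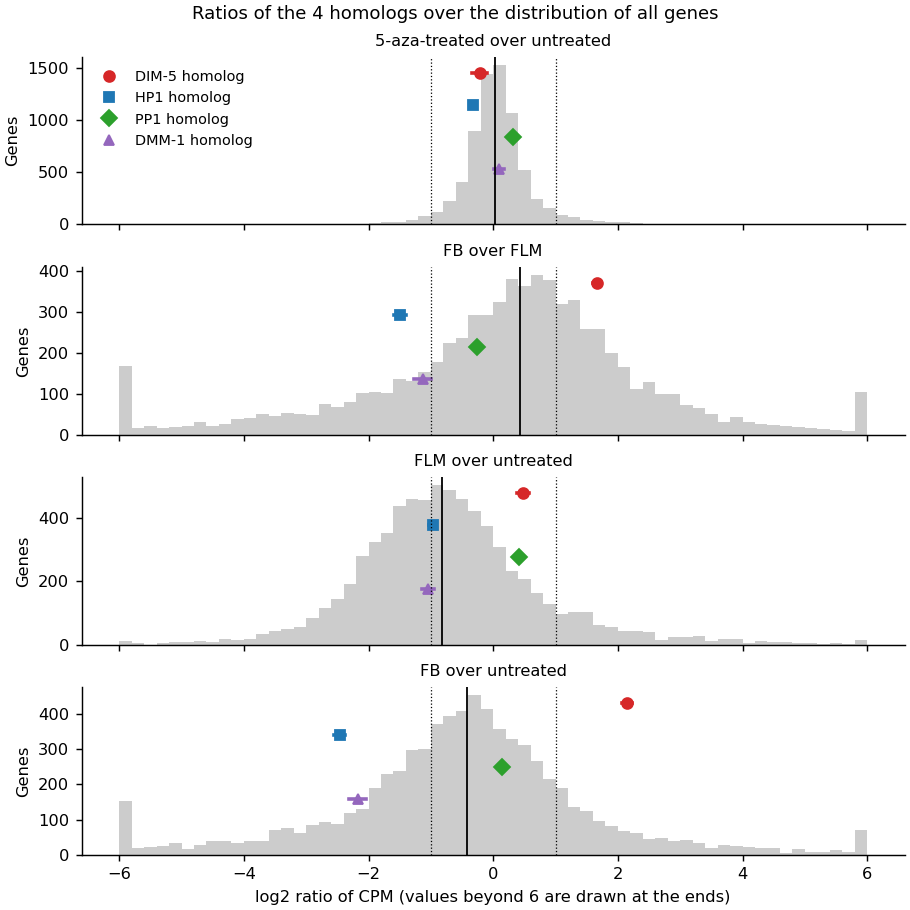
Log2 ratios of CPM of the 4 homologs (symbols, with 95% counting intervals as bars) over the histogram of all genes with at least 10 reads in either library, for 5-aza-treated over untreated, FB over FLM, FLM over untreated and FB over untreated. The solid line is the median gene and the dotted lines a fold of 2. The homologs sit within the narrow histogram of the 5-aza experiment, and in FB over FLM the DIM-5 homolog lies at 1.67 to the right and the HP1 homolog at -1.49 to the left.

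The 2 putative DNA methyltransferases of the truffle were set beside them. TmelDnmt1 (GSTUMT00012206001), which the study places with Masc1 of the fungus Ascobolus, had 338 CPM in FB, 36.4 in FLM, 93.8 in 5-aza-treated and 57.3 in untreated mycelium. TmelDnmt2 (GSTUMT00003328001), which it places with Masc3 of the same fungus, had 28.2 CPM in FB, 23.9 in FLM, 101 in 5-aza-treated and 111 in untreated mycelium. Of these 2 genes, TmelDnmt1 passed a fold of 2 in FB over FLM with a log2 ratio of 3.21 and TmelDnmt2 did not, at 0.24, against 57.7% of all genes. In 5-aza-treated over untreated mycelium neither passed, at 0.71 for TmelDnmt1 and -0.13 for TmelDnmt2, against 7.76% of all genes. The DIM-5 homolog and TmelDnmt1 were both highest in FB, and the HP1 and DMM-1 homologs and TmelDnmt2 were higher in the liquid cultures than in FB. Among all genes, 34.2% were at least 2-fold lower in FB than in untreated mycelium. In FLM the likeness ended, since TmelDnmt2 was lowest there while the HP1 and DMM-1 homologs were lowest in FB.

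Genes whose RNA followed each homolog most closely over the 4 libraries were found by the root mean square (RMS) difference of centred log2 CPM among 6814 genes with at least 10 reads in each library. For the DIM-5 homolog they were GSTUMT00009855001 (RMS 0.10) and GSTUMT00008953001 (0.11). For the HP1 homolog they were GSTUMT00010937001 (0.06) and GSTUMT00011141001 (0.07). For the PP1 homolog they were GSTUMT00008718001 (0.04) and GSTUMT00010115001 (0.05), and for the DMM-1 homolog GSTUMT00001354001 (0.04) and GSTUMT00003443001 (0.05). How many genes lay close to each 4-library profile differed. Within an RMS of 0.25 lay 33 genes (0.484%) for the DIM-5 homolog and 96 (1.41%) for the HP1 homolog. There were 147 (2.16%) for the DMM-1 homolog and 265 (3.89%) for the PP1 homolog. The even profile of the PP1 homolog thus had the most close genes and the whole profile of the DIM-5 homolog the fewest. A high fruitbody level alone was common, since 35.0% of genes were at least 2-fold higher in FB than in FLM. The points are 4 single libraries, which limits what likeness can say.

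On the v1.0 assembly the DIM-5 homolog lies on scaffold 165 from 87402 to 90134, the HP1 homolog on scaffold 235 from 41537 to 43992, the PP1 homolog on scaffold 6 from 852175 to 854165 and the DMM-1 homolog on scaffold 238 from 32560 to 36792. Their strands could not be read from the sources used, so that sides are named by coordinate. A cytosine was covered on average by 20.1 reads in FB, 19.9 reads in FLM and 1.35 reads in ECM, and by 8.64 in 5-aza-treated and 7.35 in untreated mycelium. Levels are means over cytosines with at least 4 reads, or 1 in ECM.

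The bodies of all 4 homologs had CG levels below 1% in FB, FLM, 5-aza-treated and untreated mycelium. The CG level ranged from 0.245% (PP1 homolog) to 0.849% (HP1 homolog) in FB, from 0.254% to 0.321% in FLM, from 0.269% to 0.566% in 5-aza-treated and from 0.219% to 0.586% in untreated mycelium. The median of all gene bodies was 0.485% in FB, 0.268% in FLM, 0.313% in 5-aza-treated and 0.335% in untreated mycelium, and a body level below 1% was found in 97.7%, 99.3%, 98.7% and 98.4% of genes in the same libraries. In ECM the DIM-5 homolog had 2 methylated reads of 96 and the DMM-1 homolog 2 of 307. The HP1 homolog had 0 of 116, with an exact 95% interval up to 3.13%, and the PP1 homolog 0 of 140 (up to 2.60%). CHG and CHH levels of the bodies stayed at or below 0.838% in FB, FLM, 5-aza-treated and untreated mycelium. Within this low range the homologs were spread over the distribution of genes. In FB the CG level of the HP1 homolog was above that of 94.9% of genes, that of the DIM-5 homolog above 90.8% and that of the PP1 homolog above 3.85%. These places shifted between libraries. The PP1 homolog was above 50.1% of genes in FLM and 90.5% in 5-aza-treated mycelium. The DIM-5 homolog was above 70.3% in FLM and 22.4% in untreated mycelium. The HP1 homolog was above 71.5% in FLM, 91.4% in 5-aza-treated and 89.6% in untreated mycelium. Such places rest on few methylated reads. The DIM-5 homolog had 7 of 3036 in FLM and 2 of 890 in untreated mycelium, with overlapping intervals (0.0928 to 0.475% and 0.0272 to 0.809%). The PP1 homolog had 17 of 6146 in FLM and 7 of 1566 in 5-aza-treated mycelium, also overlapping (0.161 to 0.443% and 0.180 to 0.919%). Unconverted cytosines were not told apart from methylated ones. RNA differences of up to 5.50-fold between libraries (the HP1 homolog, lower in FB than in untreated mycelium) stood beside body levels below 1%.

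The surroundings of the homologs differed from one to the next, and the HP1 homolog stood nearest to methylated repeats. In the 1 kb on its lower-coordinate side the CG level was 80.5% in FB (48 sites), 75.5% in FLM (42 sites), 55.6% in ECM (9 sites), 76.5% in 5-aza-treated mycelium (35 sites) and 73.5% in untreated mycelium (31 sites). The higher-coordinate side had 0.457% in FB and 0.044% in FLM. A body below 10% with a 1 kb flank at 50% or more was found in 1.48% of genes in FB, 1.28% in FLM, 1.18% in 5-aza-treated and 1.14% in untreated mycelium, and among the 4 homologs the HP1 homolog alone had it. Non-CG methylation of this flank was 17.4% CHG and 22.0% CHH in FB, 20.0% and 19.5% in FLM, 17.8% and 17.5% in 5-aza-treated, and 20.3% and 19.4% in untreated mycelium. With at least 10 reads per cytosine the CG level of the flank was 48.9% in 5-aza-treated and 46.1% in untreated mycelium, below the 50% of this rule, and with at least 2 reads in ECM it was 0%. Beside this flank the RNA of the HP1 homolog ranked 3356 in FB, 1160 in FLM, 861 in 5-aza-treated and 633 in untreated mycelium, and the part of the flank in it was not tested.

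This methylation lay over Gypsy elements, a family of LTR retrotransposons. An element of 230 bp (Tmel-B-G10865-MAP3_classI-LTR-incomp, scaffold 235 from 40965 to 41194) ends 342 bp from the gene and adjoins a Gypsy copy that runs on for several kilobases. The 230 bp element had no RNA read in any of the 4 RNA libraries. The edge of the methylation was sharp and stood at the same place in FB, FLM, 5-aza-treated and untreated mycelium, where the last CG site at 50% or more lay 332 bp before the gene in each. Up to that site, within 1500 bp of the gene, the CG level was 92.5% in FB, 94.0% in FLM, 97.2% in 5-aza-treated and 97.2% in untreated mycelium. From there to 500 bp into the gene it was 1.33%, 0.317%, 1.17% and 0.810%, over 60, 60, 60 and 52 sites. At the 26 CG sites of the flank with at least 4 reads in both liquid cultures the level was 68.3% in 5-aza-treated and 69.0% in untreated mycelium.

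The DIM-5 homolog also has methylated repeats on its lower-coordinate side, but farther away. In the 1 kb next to the gene on this side the CG level was 7.33% in FB, 10.9% in FLM, 7.14% in 5-aza-treated and 4.76% in untreated mycelium, which is above the level in 95.5%, 96.1%, 95.9% and 95.4% of genes. These levels cover 28, 28, 28 and 21 sites, with 51, 55, 14 and 6 methylated reads. The last site at 50% or more lay 547 bp before the gene in FLM and 914 bp before it in the others, so that few sites set these levels. An unclassified repeat of 359 bp (Tmel-B-G1021-MAP3_NoCat, scaffold 165 from 86312 to 86670) ends 731 bp from the gene, and the nearest classified TE, a Tc1/Mariner DNA transposon of 635 bp, ends 2357 bp from it. CG levels in the unclassified repeat were 94.9% in FB and 97.2% in FLM over 4 sites each. Its non-CG levels moved between libraries, and it is named here after its values were seen. CHG methylation was 15.5% in FB against 27.2% in FLM at 32 common sites, and CHH methylation 15.6% in FB against 24.6% in FLM at 94 sites. The pooled intervals did not overlap (14.6 to 19.7% in FB against 25.8 to 33.4% in FLM for CHG, and 14.2 to 17.3% against 21.9 to 26.0% for CHH). The liquid cultures differed likewise, with CHG methylation of 13.0% in 5-aza-treated against 30.6% in untreated mycelium at 11 sites, and CHH methylation of 15.8% against 26.9% at 42 sites. Over all classified TEs, the median difference of 5-aza-treated minus untreated mycelium was -2.70 points for CHG and -3.22 points for CHH. That of FB minus FLM was 1.29 and 0.358 points. In the liquid cultures this repeat fell by more than the median TE. Between FB and FLM it was lower in FB, opposite in sign to the median TE. How far single TEs spread round these medians was not measured, and the repeat itself is unclassified. The nearest classified TE, the Tc1/Mariner copy, differed in direction from this repeat for CHG. It had 23.4% in 5-aza-treated against 10.0% in untreated mycelium at 6 sites and 23.8% in FB against 16.4% in FLM at 21 sites. The pooled intervals overlapped in both. On the higher-coordinate side, the 1 kb next to the DIM-5 homolog had CG levels below 1% in FB, FLM, 5-aza-treated and untreated mycelium. Its CHH levels were 2.09%, 3.53%, 4.78% and 3.85% in the same order, above 93.5%, 94.1%, 95.1% and 94.7% of genes.

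The DMM-1 homolog had no methylation within 1 kb, with flank CG levels from 0.0668% to 0.803% over FB, FLM, 5-aza-treated and untreated mycelium. A Tc1/Mariner copy of 214 bp lies within the gene near its lower-coordinate end (scaffold 238 from 32572 to 32785), and its CG level was 0.830% in FB, 0.181% in FLM, 0.615% in 5-aza-treated and 0.191% in untreated mycelium. It is thus a TE copy without CG methylation in a transcribed gene. The deposited tables assign it 35 reads in FB, 76 in FLM, 154 in 5-aza-treated and 178 in untreated mycelium, and whether these are transcripts of the gene was not tested. The nearest TE outside the gene, a TIR element of 642 bp that ends the unmethylated stretch 1391 bp on the higher-coordinate side, had CG levels of 96.1% in FB, 100% in FLM, 5-aza-treated and untreated mycelium, over 3 or 4 sites. Its CHG level at 11 common sites was 30.2% in 5-aza-treated against 42.8% in untreated mycelium, with pooled intervals that overlapped (23.4 to 38.7% and 31.95 to 52.2%). Its CHH level at 103 common sites was 30.1% against 36.8%, with intervals that did not overlap (26.1 to 30.9% and 32.0 to 38.8%). For the median TE the differences were -2.70 points for CHG and -3.22 points for CHH.

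**Figure D3:**
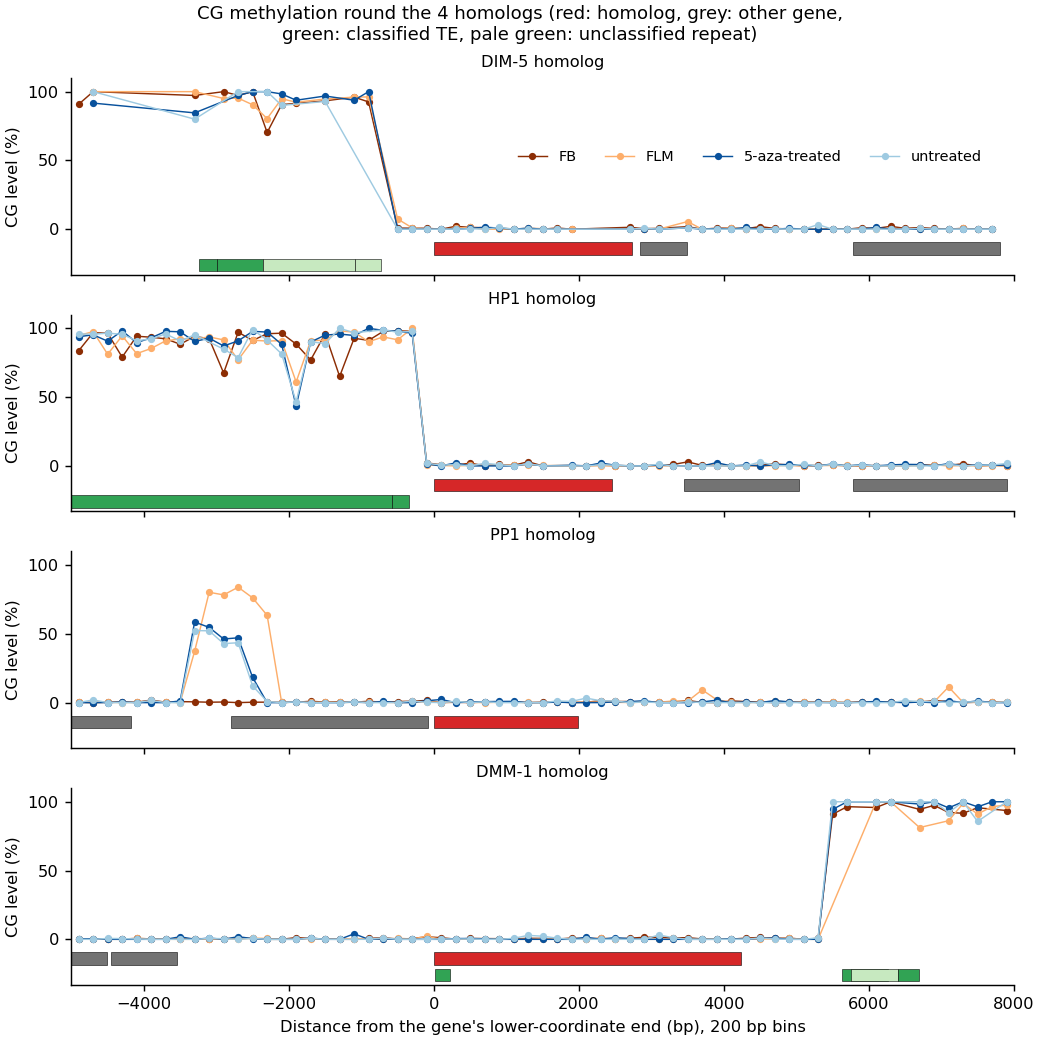
CG level in 200 bp bins from 5 kb below to 8 kb above the lower-coordinate end of each homolog, in FB, FLM, 5-aza-treated and untreated mycelium, over bins with at least 2 CG sites, with genes and repeats drawn to scale beneath. Each homolog (red) is unmethylated, methylation begins 332 bp before the HP1 homolog, sites at 50% or more begin 547 bp (FLM) or 914 bp (the other libraries) before the DIM-5 homolog, and beside the PP1 homolog it appears in the 3 mycelia and not in FB.

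The PP1 homolog has no annotated repeat within 13 kb, its nearest being a Copia fragment of 341 bp at 13537 bp whose CG sites were methylated to 1.17% in FB and 0.417% in FLM. A methylated stretch lies near it all the same. It was singled out after its values were seen, and its ends were set by the outermost CG sites with at least 50% methylation in FLM. It covers 1060 bp (scaffold 6 from 848851 to 849910), ends 2264 bp from the PP1 homolog, overlaps 540 bp of the neighbouring gene GSTUMT00009672001 and overlaps no annotated repeat. Its CG level was 0.273% in FB (109 sites), 77.0% in FLM (109 sites), 36.6% in 5-aza-treated mycelium (105 sites) and 32.7% in untreated mycelium (95 sites). In ECM 0 of 99 CG reads were methylated, with an exact 95% interval up to 3.66%. The stretch was thus methylated in all 3 Mel28 mycelia and not in FB. The ECM value is weak, since its sites had 1 to 3 reads each, and since a TE near the HP1 homolog (Tmel-B-G3408-MAP4_classII-TIR-incomp) with CG levels of 92.2% in FB and 89.0% in FLM had 1 methylated read of 39 in ECM. The strain is not stated for FB and ECM, and stage and strain cannot be told apart.

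FLM and the liquid cultures also differed in this stretch. In FLM 97 of 109 CG sites stood at 50% or more, against 45 of 105 in 5-aza-treated and 37 of 95 in untreated mycelium. At the 95 CG sites read in both, the level was 74.8% in FLM against 32.7% in untreated mycelium, and 76 sites were higher in FLM. CG sites of the stretch had on average 19.55 reads in FLM and 31.3 in FB. Over the PP1 homolog with 1 kb on either side, mean depth was 33.7 in FLM and 22.7 in FB. Depth in FLM thus dropped within the stretch, to 4 reads at some sites, and the part of this in its level was not tested. The difference in level between FLM and the liquid cultures was not even along the stretch. In the piece within 2500 bp of the PP1 homolog the CG level was 76.7% in FLM, 0.333% in 5-aza-treated and 0% in untreated mycelium, over 30 sites each, whereas beyond 3100 bp it was 57.1% in FLM, 74.0% in 5-aza-treated and 74.6% in untreated mycelium. The end nearest to the homolog was thus methylated in FLM alone of the libraries with at least 4 reads per site, and the far end in all 3 mycelia. Between these ends, from far to near, the CG level was 90.3%, 69.6% and 81.1% in FLM. It was 55.5%, 10.8% and 58.4% in 5-aza-treated and 45.5%, 17.4% and 49.6% in untreated mycelium. The pieces were cut after the sites were seen. Since FLM set the ends of the stretch, its high near end and its count of sites at 50% or more follow in part from that choice. Treatment with 5-azacytidine left the CG level at 33.7% in 5-aza-treated against 30.8% in untreated mycelium, over 92 common sites. Non-CG methylation followed the same order, with 10.8% CHG and 15.7% CHH in FLM, 3.26% and 2.97% in 5-aza-treated, 1.74% and 2.71% in untreated mycelium, and 0.427% and 0.571% in FB.

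Such windows were uncommon near genes. Of 123267 windows of 1 kb with at least 4 CG sites in FB and FLM, 0.376% had a level of 50% or more in FLM and below 10% in FB, and 0.0503% the reverse. A window of the first kind lay within 5 kb of 0.997% of the 7420 genes with a position, and among the 4 homologs near the PP1 homolog alone. The reverse kind lay near 0.202% of genes and near 0 of the 4 homologs. Of the genes round the stretch, the PP1 homolog had a log2 ratio of -0.27 in FB over FLM, and the neighbour GSTUMT00009672001, a gene of few reads, had 5.98 CPM in FB, 8.10 in FLM, 8.35 in 5-aza-treated and 7.84 in untreated mycelium. On the far side the nearest gene, GSTUMT00009671001, which is closer to the stretch than the PP1 homolog, varied more, with 73.6 CPM in FB, 28.5 in FLM, 95.1 in 5-aza-treated and 224 in untreated mycelium. It is named after its values were seen, and the part of the stretch in its RNA was not tested.

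**Figure D4:**
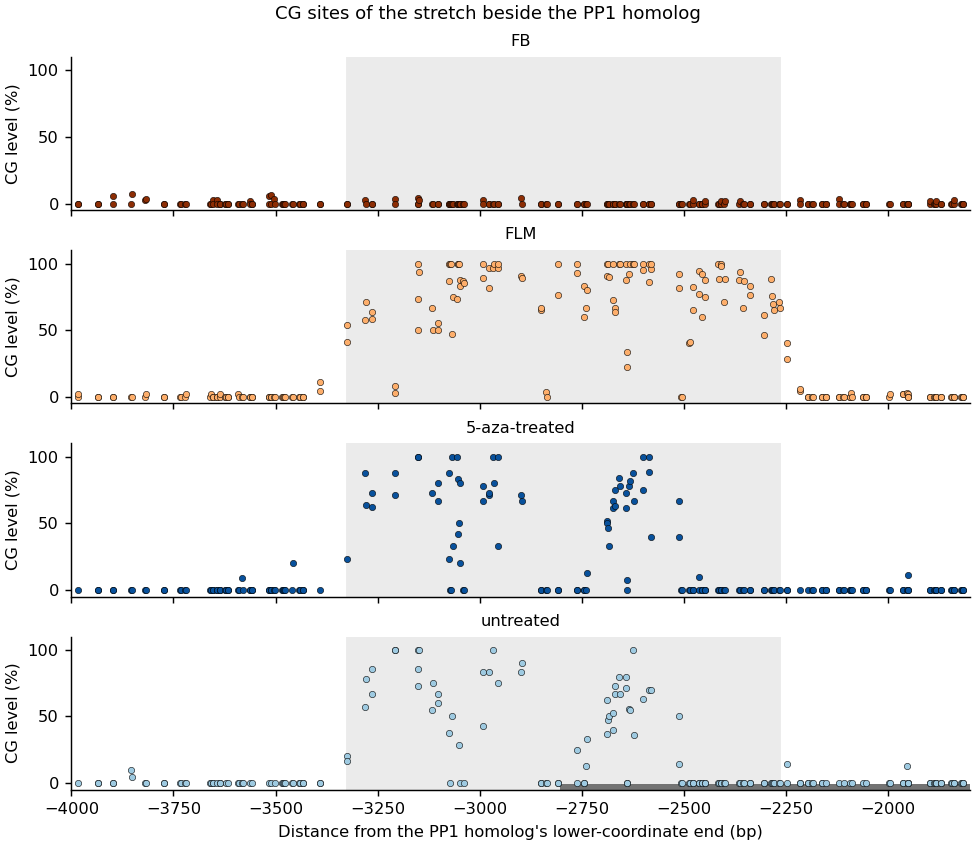
Level of each CG site with at least 4 reads between 4 and 1.8 kb below the lower-coordinate end of the PP1 homolog in FB, FLM, 5-aza-treated and untreated mycelium. The shaded stretch of 1060 bp averages 0.273% in FB, 77.0% in FLM, 36.6% in 5-aza-treated and 32.7% in untreated mycelium, and the grey bar at the foot marks the neighbouring gene.

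The depth of bisulfite reads over each homolog with 1 kb on either side, divided by the genome mean, shows how often each locus was read. For the PP1 homolog it was 1.13 in FB, 1.70 in FLM and 1.10 in ECM, with 1.203 in 5-aza-treated and 1.22 in untreated mycelium. Relative to the median gene of each library, FB stood at 0.641 of FLM, below all but 3.03% of genes, and FLM at 1.30 times untreated mycelium, above 96.6% of genes. For the HP1 and DMM-1 homologs the same ratios of FB over FLM were 1.01 and 1.06, within the range of 0.885 to 1.08 that holds the middle 90% of genes. The DIM-5 homolog had the ratio 1.2, above 99.7% of genes, with a depth in FLM of 0.684 times the median gene. It also had 1.22 in 5-aza-treated over untreated mycelium, above 99.0% of genes, and 0.742 in FLM over untreated mycelium, above 1.86%. At CG sites alone its depth over the genome mean was 0.912 in FLM and 0.910 in untreated mycelium, against 0.851 and 1.07 at all cytosines. In FLM the PP1 homolog was therefore read more often and the DIM-5 homolog less often than the median gene, and the part of this in their RNA was not tested.

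The higher depth at the PP1 homolog extended to its neighbours. Of the 74 genes on scaffold 6, 45 had a depth in FLM of at least 1.2 times that in FB, and they form 1 unbroken run from position 646575 to 1657077 that includes the PP1 homolog and was singled out after its values were seen. Other scaffolds had such a ratio in 3.42% of 7346 genes. Scaffold 6 was not alone, since 6 of 116 scaffolds with at least 20 genes, itself included, had a median ratio of at least 1.2. The paper likewise reports many regions that differ in copy number between FLM and FB, most of them amplified in FLM. The median depth over the genes of scaffold 6 relative to the median gene was 0.993 in FB, 1.49 in FLM, 1.00 in ECM and 0.986 in both liquid cultures, so that the excess was seen in FLM and not in the other cultures of the same strain. The RNA of the genes in the run stood beside this as follows. Their median log2 ratio was -0.68 for FB over FLM (43 genes, against 0.43 over all genes), 0.24 for FLM over untreated mycelium (44 genes, against -0.82) and 0.13 for 5-aza-treated over untreated mycelium (44 genes, against 0.04). The PP1 homolog, at -0.27 and 0.41 in the first 2 of these, lay nearer to the median of the run than to that of all genes in both. In FB over untreated mycelium, where the run had -0.59 (43 genes) and all genes -0.42, the PP1 homolog had 0.14 and lay nearer to all genes. Whether the depth has a part in the RNA was not tested.

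**Figure D5:**
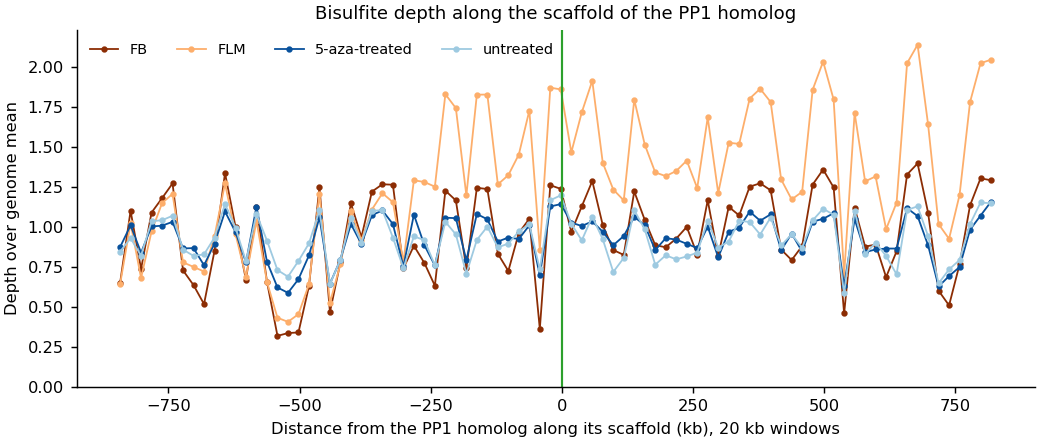
Mean bisulfite read depth over the genome mean in 20 kb windows along scaffold 6, against the distance in kb from the PP1 homolog (vertical line), for FB, FLM, 5-aza-treated and untreated mycelium. FLM runs above the other libraries over the side that holds the homolog, where the homolog itself has 1.13 in FB and 1.70 in FLM.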

How the data were processed

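The deposited counts are reads of 50 nt that the authors mapped with TopHat (TopHat2 2.0.4 in the submitters' notes) to transcripts of genes and TEs and counted with HTSeq 0.5.4p3. These steps are described for the stage libraries only, and the same was assumed of the 5-aza libraries. The authors also deposited RPKM for the FB and FLM genes. Those of the 5-aza table rest on lengths that are not gene lengths and were not used, nor were the columns of both gene tables with the authors' own log2 ratios, p-values and adjusted p-values. Methylation files give, for each cytosine, counts of methylated and of all bisulfite reads that the authors aligned with BS Seeker, version not given in the sources used here. Positions in FB, FLM and ECM count from 0 and were raised by 1.

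CPM, exact Poisson and exact conditional binomial intervals (95%), ranks and methylation levels came from scipy 1.17.1 and numpy 2.4.6, on tables held in pandas 2.3.3 under Python 3.11.15. The ratios were tested on simulated data. Log2 ratios used no pseudocount. The call was a fold of 2 among genes with at least 10 reads in either library. With 1 library per condition no test was made, and replicate error is unknown. The genes named were the 4 homologs, both DNA methyltransferases, the 2 most similar genes for each homolog and the nearest classified TEs, and other features were chosen after their values were seen. The homologs and lists were chosen with earlier results of these data known. RefSeq (ASM15164v1) gave positions for 7420 genes. Protein relatives and a list of chromatin genes by product name were not analysed here. Alternatives covered scaling, totals, pseudocounts, read minimums, pooling and flank length.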

Additional observations from a re-analysis of the deposited data

How the results depend on the processing

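Of 104 log2 ratios recomputed under alternatives, 96 kept their direction and their side of a fold of 2. Among these alternatives were pseudocounts of 0.5 and 10 reads, small beside the 606 or more reads of each homolog. They could hardly change a call, so the count by itself says little. In FLM over untreated mycelium, the ratio of the DIM-5 homolog was 1.30 with median-of-ratios and 1.01 with upper-quartile scaling, and that of the PP1 homolog 1.23 with median-of-ratios. The DMM-1 homolog there had -0.23 with median-of-ratios, -0.51 with upper-quartile scaling and -0.9997 without the 10 genes with most reads. In FB over FLM the DMM-1 homolog had -0.94 with RPKM totals exchanged, an alternative chosen after seeing the data. In FB over untreated mycelium the PP1 homolog had -0.14 with classified TEs in the total. The scalings differ by construction in where they set the median gene. Ranks per length were 1144 for the DIM-5 homolog in FB, and 4553 in FLM, 4362 in 5-aza-treated and 4334 in untreated mycelium for the DMM-1 homolog, the longest of the 4.

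The CG level of the HP1 flank was 66.8% in FB, 61.3% in FLM, 68.2% in 5-aza-treated and 58.8% in untreated mycelium with pooled reads, and 72.1%, 66.7%, 48.9% and 46.1% with at least 10 reads. With at least 1 read it was 79.8% in FLM, 83.5% in 5-aza-treated and 81.3% in untreated mycelium, and over 2000 bp 82.6%, 82.9% and 81.9%. Over 500 bp it was 21.4% in FB, 20.6% in FLM, 20.4% in 5-aza-treated, 21.1% in untreated mycelium and 0% in ECM, since methylation ends 332 bp before the gene. With at least 2 reads ECM also gave 0%. The stretch beside the PP1 homolog had 73.9% in FLM with pooled reads, and 72.9% in FLM and 42.0% in 5-aza-treated mycelium with at least 10 reads, alternatives chosen after seeing the data. The cause of the other shifts was not tested. All 40 alternative values of locus depth stayed within 1.5-fold of the main ones, a margin wider than the depth ratios of the DIM-5 homolog. Ratios of depth between libraries were not recomputed under these alternatives. The ratio of deposited RPKM could not be run for the 5-aza experiment. No paired analysis was possible because each condition has 1 library, and for the same reason no library could be left out.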
